A study of Mus musculus with 8 samples.

Results

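The genes described here encode the light chains of skeletal muscle myosin, the proteins that bind the thick filament, the kinase that phosphorylates the regulatory light chain and a muscle protein of the smoothelin family. They comprise 10 genes, Myl1, Myl2, Myl3, Myl4, Mylpf, Mylk2, Mybpc1, Mybpc2, Mybph and Smtnl1. All probe sets whose only gene symbol in the platform annotation was one of these names were taken, which gave 15 of the 45101 probe sets on the array (10 of 18193 named genes). A single probe set represented each of 7 genes, and 3 genes, Myl3, Myl4 and Mybpc1, had more. The rule goes by gene symbol and reads no signal, although the genes were picked with earlier results of these data known.

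Total RNA of 8 mouse gastrocnemius samples was hybridised to 1 Affymetrix array each. The labels call 4 samples wild type, used here as controls, and 4 GR KO, that is, lacking the glucocorticoid receptor, and give C57/Bl6J as the strain background of all of them. The knockout is written GR(i)skm-/- in the series design; the sources used here do not give the recombinase, its promoter, the time of deletion, or the age and sex of the mice. The comparison asks which muscle transcripts differ between the genotypes.

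A myosin head carries an essential and a regulatory light chain, which stiffen its lever arm. Fast fibres use the essential chain encoded by Myl1 and the regulatory chain encoded by Mylpf, whereas slow fibres and heart ventricle use those encoded by Myl3 and Myl2. Myosin-binding protein C sits in stripes along the thick filament, in slow (Mybpc1) and fast (Mybpc2) forms, and tunes how readily heads reach actin. The mouse gastrocnemius is made up mainly of fast fibres.

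Upstream sequence is shown first for the slow light chain genes. Their signals varied together over the 8 arrays (Pearson's r = 0.93), less so without control replicates 4 and 1 (0.47). The fast genes Mylpf and Mybpc2 also varied together (0.98), and a part of upstream sequence in either relation was not tested. The 250 bases before the annotated start of Myl2 (GRCm38.p6, chr5:122092474-122092723, plus strand) and of Myl3 (chr9:110763428-110763677, plus strand) are from the RefSeq promoter windows. Capitals mark the E-box letters CANNTG, the core bound by myogenic factors such as MyoD and myogenin.

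Myl2: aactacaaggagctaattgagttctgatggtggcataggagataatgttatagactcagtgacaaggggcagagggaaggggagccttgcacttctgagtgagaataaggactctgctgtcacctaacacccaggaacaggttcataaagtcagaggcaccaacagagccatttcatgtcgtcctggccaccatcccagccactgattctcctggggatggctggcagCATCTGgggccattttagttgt

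Myl3: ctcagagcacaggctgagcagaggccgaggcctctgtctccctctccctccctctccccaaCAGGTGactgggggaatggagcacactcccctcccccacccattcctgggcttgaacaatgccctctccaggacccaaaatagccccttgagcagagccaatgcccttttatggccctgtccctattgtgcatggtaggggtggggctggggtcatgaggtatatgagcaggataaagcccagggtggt

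Sequence around the letters AGAACA, one arm of the glucocorticoid receptor's palindromic binding element, is shown for the 4 genes whose windows held it, since the receptor is the deleted factor. Each line gives 30 bases on the gene's own strand, with the match in capitals: Myl4 at chr11:104550559-104550588 (plus), Mylpf at chr7:127211472-127211501 (plus), Mybpc1 at chr10:88605245-88605274 (minus) and Smtnl1 at chr2:84822654-84822683 (minus).

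Myl4: gagagagaaacgAGAACAagacggaaaagc

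Mylpf: cctttgggagaaAGAACAtcccttcctacc

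Mybpc1: tggaacaggcagAGAACAggaaagagcacg

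Smtnl1: tgttgtaccaacAGAACAgtaaacaatgcc

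Windows of 300 bases, 250 before and 50 after an annotated start, were given for 9 of the 10 genes, 10 windows in all, since Myl2 had 1 window for each of 2 starts. Both strands were searched for the E-box, for the receptor's arm given above, and for the full palindromic glucocorticoid response element, which contains that arm. The arm was found in 4 of the 10 member windows against 19.0% of all 32851 windows, and an E-box in 9 of 10 against 72.3%. The full element was in 0 of the member windows and in 0.00913% of all windows. Binding at these sites was not measured here.

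The knockout was visible in the receptor gene. Of the 5 tested probe sets of Nr3c1, 1460303_at had signals from 307 to 377 on control and from 76 to 134 on GR_KO arrays, and 1457635_s_at had 100 to 189 and 29 to 43. Their log2 fold changes were -1.84 ± 0.20 and -1.96 ± 0.25 (SE, limma adjusted p = 0.0240 and 0.0354), and the other 3 did not pass. Which probe sets lie outside the deleted part was not analysed here. Markers of skeletal muscle fibres were above the signal filter for 10 of 10 genes. Of 7 heart markers 5, Nppa, Nppb, Myl7, Myh6 and Tnni3, were below it, while Sln and Tnnt2 were above it.

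Control replicate 4 stood apart from the other arrays before any comparison of genotypes. The mean signal of its bacterial spike-ins was 8094, against 2292 to 3838 on the other 7 arrays, and its 3′ to 5′ signal ratio for Gapdh was 1.20 against 0.797 to 0.915. It held the lowest or the highest of the 8 signals for 12 of the 14 tested member probe sets, and for 53.0% of all tested probe sets. Log2 fold changes of the tested member probe sets are therefore also given without it.

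No member differed between GR_KO and control muscle past an adjusted p of 0.05. Of the 15 probe sets, 14 had a mean log2 signal above the median of all probe sets and were tested, and 0 were called in either direction (smallest limma adjusted p = 0.963). Across the array 0.0222% of tested probe sets were called lower and 0% higher. An unadjusted p under 0.05 was reached by 2 of the 14, those of Myl4 and Mybph, against 3.75% of all tested probe sets. Signals of the groups did not overlap for 1 of the 14, that of Myl4, against 2.19% of all. That probe set was higher in GR_KO; 0 were lower without overlap, against 1.21% of all. The log2 fold change was above 0 for 6 and below 0 for 8, with a median of -0.04, beside 47.8% above 0, 52.2% below 0 and a median of -0.01 over all. Standard errors of the members lay between 0.16 and 0.37, around the median of 0.24 over all tested probe sets.

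**Figure D1:**
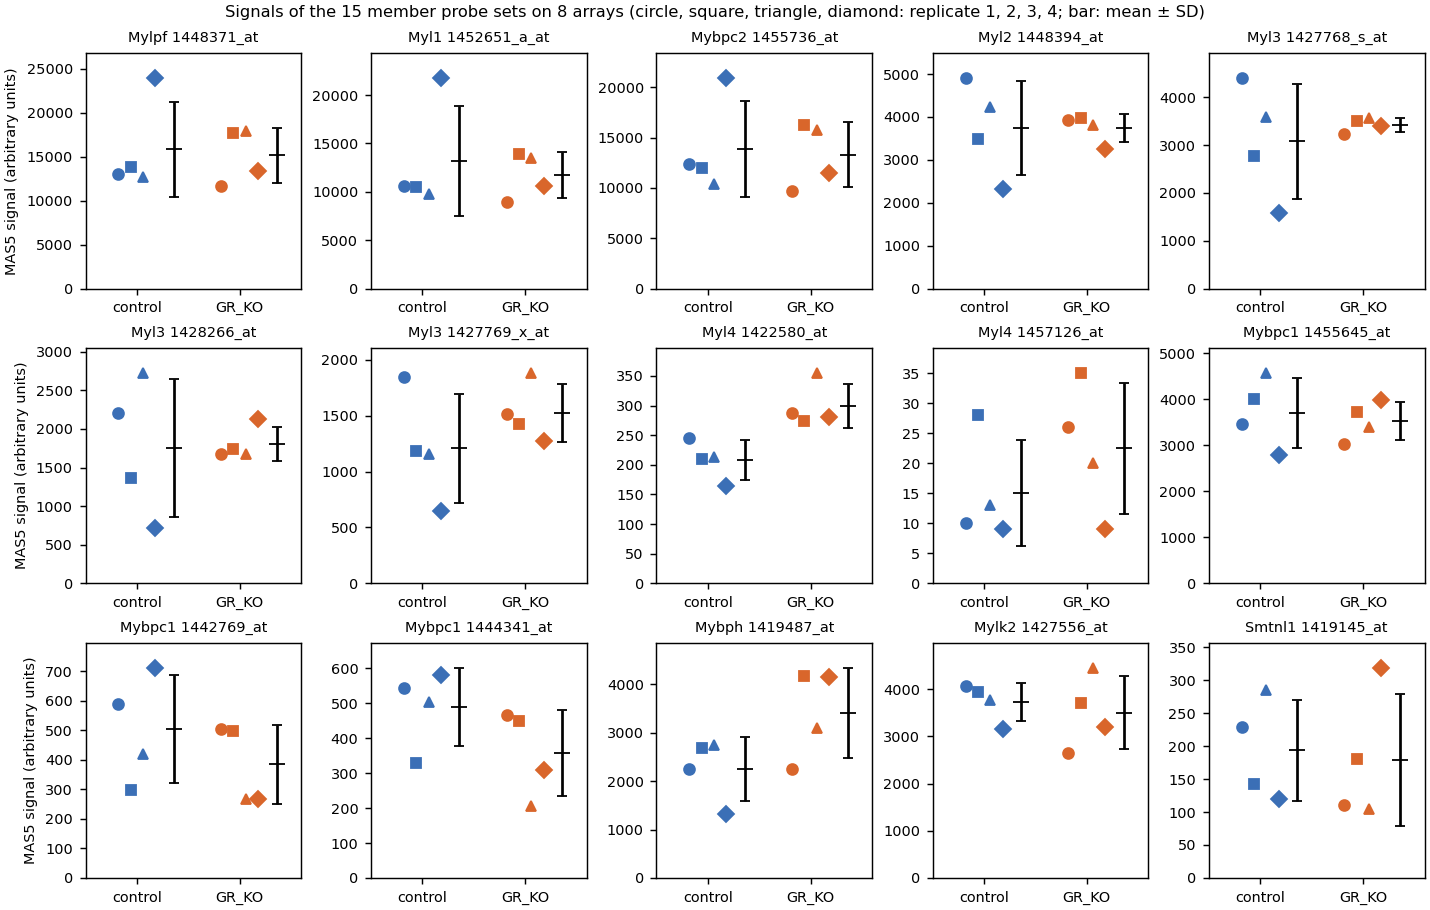
MAS5 signal (linear axis from 0) of each of the 15 probe sets on the 4 control (blue) and 4 GR_KO (orange) arrays, with the marker shape giving the replicate and the black bar the mean ± SD. Control replicate 4 (blue diamond) is the highest array for Mylpf, Myl1 and Mybpc2 and the lowest for Myl2 and Myl3, and Myl4 1422580_at is the single panel of a tested probe set in which the groups do not overlap.

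The regulatory light chain of fast fibres, Mylpf, was measured by 1448371_at. Its signals were 12977, 13818, 12638 and 23891 on control arrays and 11595, 17683, 17867 and 13367 on GR_KO arrays. Control replicate 4 was the highest of all, GR_KO replicates 2 and 3 came next, and the groups overlapped. The means were 15831 ± 5396 and 15128 ± 3142 (SD, n = 4), a log2 fold change of -0.04 ± 0.23 (SE, 95% interval from -0.54 to 0.47, limma adjusted p = 0.990). Without control replicate 4 the other controls had 13144 ± 608 and the log2 fold change was 0.18.

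The essential chain partner, Myl1, followed the same arrays. Probe set 1452651_a_at had signals of 10636, 10509, 9795 and 21734 on control and 8983, 13925, 13539 and 10579 on GR_KO arrays. The first 3 controls lay close together at 10313 ± 453, and control replicate 4 had 2.11 times their mean. The log2 fold change was -0.10 ± 0.26 (95% interval from -0.67 to 0.46, limma adjusted p = 0.974), and 0.17 without control replicate 4.

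Mybpc2, the fast form of myosin-binding protein C, had signals of 12326, 11979, 10354 and 20886 on control and 9714, 16262, 15780 and 11435 on GR_KO arrays at 1455736_at. Again control replicate 4 was highest and GR_KO replicate 1 lowest. The log2 fold change was -0.04 ± 0.24 (95% interval from -0.57 to 0.49, limma adjusted p = 0.988) and became 0.17 without control replicate 4.

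These fast genes lie near the top of the signal range, and their levels tracked the spike-ins of each array. The signal of Mylpf ranked between 2 and 16 among the probe sets of each array, that of Mybpc2 between 10 and 24 and that of Myl1 between 21 and 32. Such ranks depend on the probes and do not order transcript levels. Pearson's r between the log2 spike-in mean and the log2 signal was 0.96 for Mylpf, 0.98 for Myl1 and 0.93 for Mybpc2 over the 8 arrays (Spearman's rho 0.98, 0.90 and 0.95; exact permutation p for r = 4.96e-05, 0.000422 and 0.000223; adjusted p = 0.000298, 0.000844 and 0.000669 over 6 such relations). Without the arrays farthest from the median spike-in signal, control replicate 4 and GR_KO replicate 3, r was 0.95, 0.96 and 0.98. These correlations were computed after the array values had been seen. For Myl2 and Myl3 r was -0.78 and -0.81 (rho -0.43 and -0.26; exact permutation p = 0.0519 and 0.0696, adjusted p = 0.0779 and 0.0835), and -0.08 and 0.01 without the same pair of arrays, so that relation rested on them. For Mybph r was -0.57 (rho 0.02, exact permutation p = 0.159, adjusted p = 0.159) and 0.59 without that pair.

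**Figure D2:**
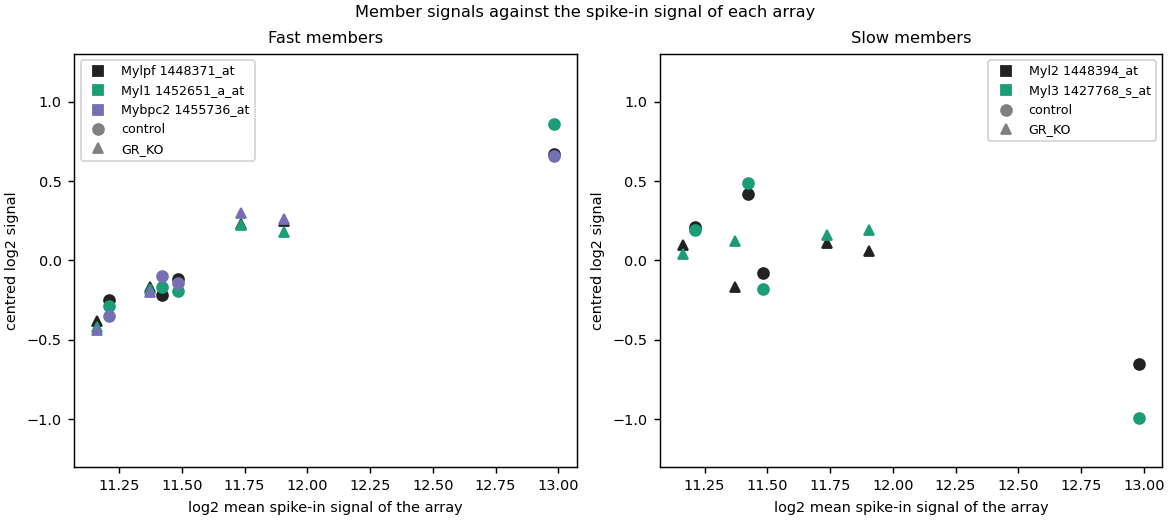
Log2 signal of fast members (left) and slow members (right), each minus its mean over the 8 arrays, against the log2 mean spike-in signal of the array, with circles for control and triangles for GR_KO. The fast members rise with the spike-ins along all 8 arrays (r from 0.93 to 0.98), while for the slow members control replicate 4 lies alone at the lower right.

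With the spike-in signal as a covariate in the fit, the log2 fold changes were 0.10 for Mylpf, 0.06 for Myl1 and 0.10 for Mybpc2, and none passed the threshold. Quantile normalization, which gives every array the same set of values, left Mylpf between 13047 and 15743, Myl1 between 11421 and 12376 and Mybpc2 between 12121 and 13752 on all 8 arrays. On that scale a probe set near the top of every array can move little, by construction. The log2 fold changes of these 3 genes were 0.06, 0.00397 and 0.02 with quantile normalization, against -0.04, -0.10 and -0.04 without it, and the cause of the change of sign was not tested.

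The slow regulatory chain, Myl2, had signals of 4902, 3483, 4241 and 2332 on control and 3933, 3970, 3819 and 3265 on GR_KO arrays at 1448394_at. The 4 GR_KO signals lay within the range of the controls, whose highest and lowest signals were also those of the whole series. The means were 3740 ± 1103 and 3747 ± 328 (SD, n = 4), with a log2 fold change of 0.05 ± 0.21 (95% interval from -0.41 to 0.51, limma adjusted p = 0.981). It was -0.16 without control replicate 4 and -0.04 with quantile normalization.

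Myl3, the essential chain of slow fibres, was measured by 3 probe sets, of which those ending in _s_at and _x_at can also bind related transcripts. Probe set 1427768_s_at had 4401, 2766, 3584 and 1576 on control and 3226, 3501, 3575 and 3412 on GR_KO arrays. Control replicate 1 was highest and control replicate 4 lowest, with the GR_KO arrays in a narrow band between them (coefficient of variation 4.39% against 39.1% among controls). Part of the spread among controls came from control replicate 4: their SD was 1205 with it and 818 without it, against 151 on GR_KO arrays. The log2 fold change of this probe set was 0.25 ± 0.26 (limma adjusted p = 0.963). Control replicate 4 was also lowest at 1427769_x_at, with 644 against 1159 to 1843 on the other 3 controls and 1274 to 1883 on GR_KO arrays, and at 1428266_at, with 712 against 1366 to 2725 and 1671 to 2133. The log2 fold changes of these probe sets were 0.42 ± 0.27 and 0.21 ± 0.34. Without control replicate 4 the values of the 3 probe sets were -0.04, 0.15 and -0.17, so the 3 probe sets of the gene no longer pointed one way. Pairwise r among them over the 8 arrays was 0.90, 0.92 and 0.68 (rho 0.52, 0.81 and 0.17; exact permutation p for r = 0.00950, 0.00667 and 0.0876, adjusted p = 0.0190, 0.0190 and 0.131 over 6 pairs of probe sets). Without the 2 arrays farthest from the median, control replicates 4 and 1 for the first and second pair and control replicate 4 and GR_KO replicate 3 for the other, it was 0.38, 0.69 and 0.03. The relation of 1427769_x_at to the others thus rested on those arrays, while that between 1427768_s_at and 1428266_at was lower without them.

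The slow light chains moved with each other, and Myl2 with the slow heavy chain, from array to array. Over the 8 arrays, r between Myl2 and Myl3 was 0.93 (rho 0.83; exact permutation p for r = 0.00370, adjusted p = 0.00555 over 6 pairs), and between Myl2 and Myh7, the slow myosin heavy chain, 0.95 (rho 0.95, exact permutation p = 0.00146, adjusted p = 0.00292). Without control replicates 4 and 1, the arrays farthest from the median of Myl2, these values fell to 0.47 and 0.69, so a good part of the relation rested on that pair. The summed signal of 8 slow-fibre markers was 4134 on control replicate 4, 7320 to 16919 on the other controls and 9481 to 12072 on GR_KO arrays, with 8 of 8 markers above the signal filter. In whole muscle, fewer slow fibres and less of these transcripts per fibre cannot be told apart. Control replicate 4 also differed in its spike-in and Gapdh values, as given above, and their part in its low sum was not tested.

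Among fast genes, r was 0.98 between Mylpf and Mybpc2 (rho 0.90, exact permutation p = 0.000248, adjusted p = 0.000894) and 0.98 between Mylpf and the fast heavy chain Myh4 (rho 0.90, exact permutation p = 0.000298, adjusted p = 0.000894). Both stayed high without the 2 farthest arrays (0.96 and 0.97). Mylpf and Mybpc2 also followed the spike-ins, as given above, and the part of that pattern in the correlations was not tested.

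Fast and slow members went opposite ways on control replicate 4. The mean log2 signal of Mylpf, Myl1 and Mybpc2 there was 0.73 above their mean over all arrays, and that of Myl2 and Myl3 lay at -0.82, a difference of 1.55. On the other 3 controls this difference lay at -0.61, -0.02 and -0.50, and on GR_KO arrays at -0.48, 0.12, 0.11 and -0.16. The GR_KO arrays fell within the range of the 4 controls. Without control replicate 4 the controls spanned -0.61 to -0.02, and GR_KO replicates 2 and 3 lay above them. The rise on control replicate 4 was not particular to the fast members. The summed signal of 10 skeletal muscle fibre markers was 214826 there, 103009 to 116045 on the other controls and 94120 to 148933 on GR_KO arrays. The 3′ control probe set of Gapdh had 23091 there and 8338 to 13660 on the others. The part of such array-wide differences in the opposite shifts was not tested.

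**Figure D3:**
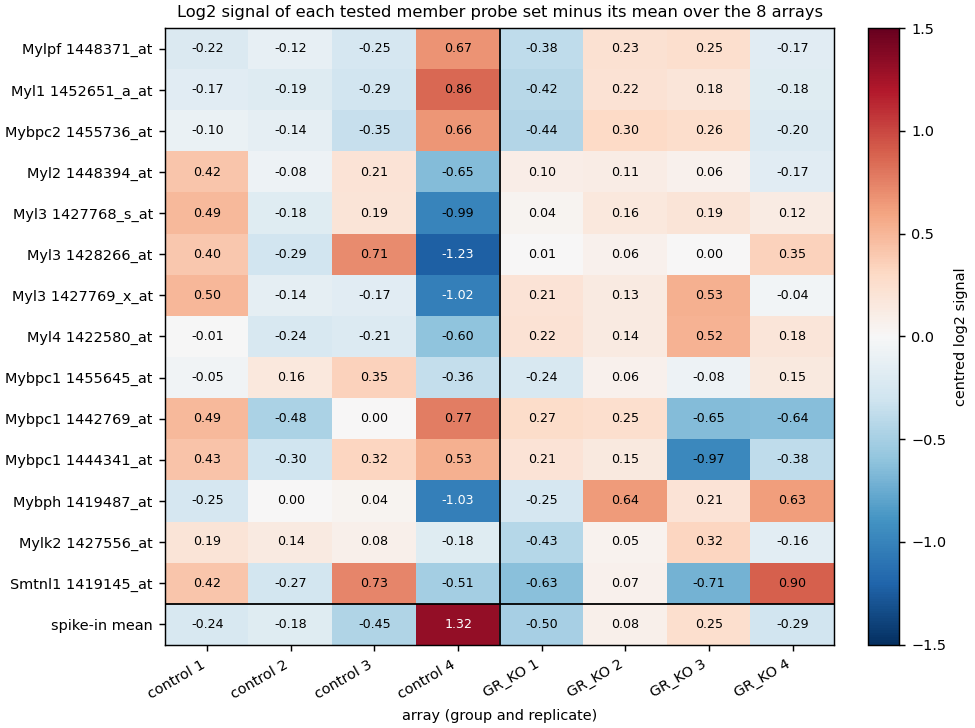
Log2 signal of the 14 tested probe sets (rows) on each array (columns, control left of the line and GR_KO right), minus the row's mean over the 8 arrays, with the spike-in mean of each array as the last row. The column of control replicate 4 runs from -1.23 for Myl3 1428266_at, the lowest value of the plot's member rows, to 0.86 for Myl1, the highest value is 0.90 for Smtnl1 on GR_KO replicate 4, and the Myl4 row is above 0 in all 4 GR_KO columns.

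Myl4 encodes the essential chain of heart atrium and of embryonic skeletal muscle. Probe set 1422580_at had signals of 246, 210, 214 and 164 on control and 288, 274, 355 and 280 on GR_KO arrays. Every GR_KO signal lay above every control signal, which held for 0.981% of all tested probe sets in that direction. The means were 208 ± 33.8 and 299 ± 37.6 (SD, n = 4), a 1.44-fold higher level with a log2 fold change of 0.53 ± 0.16 (95% interval from 0.17 to 0.89, unadjusted p = 0.00821). After adjustment over the 22518 probe sets the difference did not pass the threshold (limma adjusted p = 0.963). It was 0.42 without control replicate 4 and 0.56 with quantile normalization, and ranged from 0.42 to 0.61 with single arrays left out. The other probe set of the gene, 1457126_at, was dim and not tested, with signals from 9 to 28 on control and from 9 to 35 on GR_KO arrays, so it gives no second reading of the gene.

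Genes that accompany Myl4 in the heart or in immature fibres did not give a common picture. The atrial genes Nppa and Myl7 had signals of at most 11 and 15 on any array, near the bottom of the signal range. The heart markers Sln and Tnnt2 were above the signal filter. Sln had 38 to 71 on control and 35 to 68 on GR_KO arrays, and Tnnt2 had 25 to 42 and 19 to 35. The embryonic and perinatal heavy chains Myh3 and Myh8 had log2 fold changes of -0.41 and 0.43, and the cardiac actin Actc1 had 0.56 ± 0.24 (limma adjusted p = 0.963), with signals from 3894 to 7992 on control and 6559 to 11426 on GR_KO arrays. In a list of 12 developmental, regeneration and denervation genes, 8 of 14 tested probe sets were above 0 and 6 below, 0 passed, and the median was 0.02. Ankrd1, a stretch-responsive ankyrin repeat protein of that list, had -0.67 ± 0.22 at 1420991_at (limma adjusted p = 0.963) and -0.49 at its other probe set. The groups did not overlap at 1420991_at, 1 of the 14, against 2.19% of all tested probe sets. Csrp3, a muscle LIM protein, had -0.60 ± 0.31.

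Mybph, a smaller relative of myosin-binding protein C, had signals of 2256, 2679, 2754 and 1314 on control and 2246, 4167, 3094 and 4156 on GR_KO arrays at 1419487_at. Of the GR_KO signals 3 lay above all controls, and GR_KO replicate 1 lay among them. The means were 2251 ± 662 and 3416 ± 928 (SD, n = 4), 1.53-fold higher on the fitted scale, with a log2 fold change of 0.62 ± 0.26 (95% interval from 0.03 to 1.20, unadjusted p = 0.0403, limma adjusted p = 0.963). Without control replicate 4, the lowest array, it was 0.38, and without GR_KO replicate 1 it was 0.80.

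The slow form of myosin-binding protein C, Mybpc1, gave readings that differed between its probe sets. The brightest, 1455645_at, had 3466, 4006, 4568 and 2791 on control and 3030, 3720, 3394 and 3979 on GR_KO arrays, with a log2 fold change of -0.05 ± 0.17. Probe sets 1442769_at and 1444341_at had their highest signal on control replicate 4, where 1455645_at had its lowest. Their signals were 589, 299, 419 and 711 on control and 505, 497, 266 and 268 on GR_KO arrays at the first, and 545, 328, 505 and 581 against 467, 449, 206 and 309 at the second. Their log2 fold changes were -0.39 ± 0.30 and -0.49 ± 0.27, both short of the threshold (limma adjusted p = 0.963 for each), with GR_KO replicates 3 and 4 below all controls. These probe sets varied together (r = 0.90, rho 0.93, exact permutation p = 0.000942, adjusted p = 0.00565 over 6 pairs) but not with 1455645_at (r = -0.55 and -0.21, rho -0.50 and -0.29, exact permutation p = 0.164 and 0.625, adjusted p = 0.197 and 0.625). Without the 2 farthest arrays these r were 0.91, -0.73 and -0.44. Without control replicate 4 the log2 fold changes were -0.18 at 1455645_at, -0.2 at 1442769_at and -0.4 at 1444341_at. The part of the transcript that each probe set reads was not analysed here. Mybph and Mybpc1 1455645_at had r of 0.66 (rho 0.55, exact permutation p = 0.0709, adjusted p = 0.0851), and 0.42 without the 2 farthest arrays.

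Mylk2, the skeletal muscle kinase that phosphorylates the regulatory light chain when calcium and calmodulin bind it, had signals of 4067, 3937, 3775 and 3155 on control and 2652, 3713, 4453 and 3195 on GR_KO arrays at 1427556_at. The lowest and the highest of all 8 arrays were both GR_KO arrays. The log2 fold change was -0.11 ± 0.17 (95% interval from -0.49 to 0.27, limma adjusted p = 0.963), and -0.19 without control replicate 4. Smtnl1, a smoothelin-like protein that binds and inhibits myosin phosphatase, had 229, 142, 285 and 120 on control and 111, 180, 105 and 319 on GR_KO arrays at 1419145_at. It spread widely in both groups (coefficients of variation 39.6% and 55.7%), and its log2 fold change of -0.18 ± 0.37 had the widest 95% interval of the tested members, from -1.0 to 0.64 (limma adjusted p = 0.969). Without control replicate 4 the log2 fold change of Smtnl1 was -0.39. Mylk2 and Smtnl1 showed little relation across arrays (r = 0.09, rho -0.02, exact permutation p = 0.837, adjusted p = 0.837; 0.05 without the 2 farthest arrays).

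**Figure D4:**
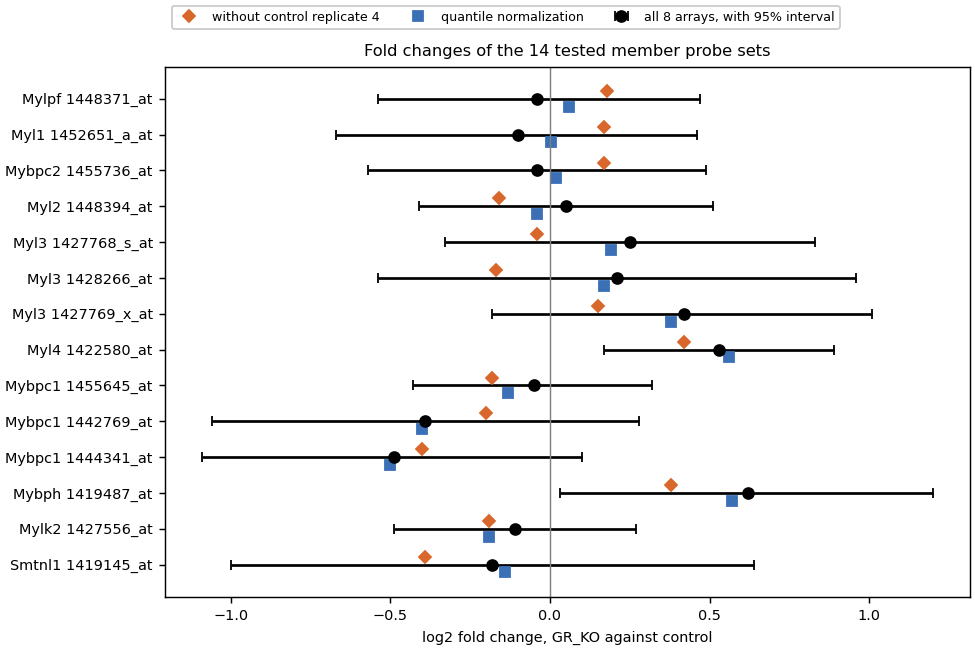
Log2 fold change of GR_KO against control for the 14 tested probe sets (black, with 95% interval), with the value without control replicate 4 (orange diamonds) and with quantile normalization (blue squares). The intervals of Myl4 1422580_at and Mybph 1419487_at lie above 0 before adjustment, and the points of Mylpf, Myl1, Mybpc2, Myl2 and the Myl3 probe sets 1427768_s_at and 1428266_at change sign between settings.

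Among genes of the same machinery that are not members, 0 probe sets of the 6 lists passed the threshold, and values are given for the genes with the smallest p in each. Mybpc3, Mylk3, Myh3 and Myh8 were added outside that rule, after their values had been seen, and Myl7 was named as a heart marker. Of 18 tested probe sets for fast-fibre contractile genes 4 were above 0 and 14 below (median -0.08, and 0.15 without control replicate 4), with Myh2, the heavy chain of type IIa fibres, at -0.37 ± 0.17. Tropomyosin Tpm1 had 0.37 ± 0.22 at one probe set and -0.19 to -0.05 at its other 3, and the fast troponin I gene Tnni2 0.34 ± 0.30 at one and -0.10 to -0.06 at the others. Of 18 for slow-fibre contractile genes 10 were above 0 and 8 below (median 0.04, and -0.06 without control replicate 4). Tpm3, slow tropomyosin, had -1.06 ± 0.39 at 1436958_x_at (limma adjusted p = 0.963) but -0.06 to 0.33 at its other 4 probe sets. The Z-disc protein gene Myoz2 had -0.37 ± 0.23, and the slow calcium pump Atp2a2 -0.35 ± 0.27 at one probe set and -0.08 to 0.04 at its other 4. For other light chains, light chain kinases and myosin-binding protein paralogues 9 of 15 were above 0 (median 0.05). The non-muscle regulatory chain Myl12a had 0.31 ± 0.17 at 1420820_at and 0.11 at its other probe set. The smooth muscle kinase Mylk had 0.35 ± 0.20 at 1425505_at but -0.12 to 0.10 at its other 2, and smoothelin, Smtn, had 0.33 ± 0.21. The heart forms Mybpc3 and Mylk3 were dim, with signals of at most 20 and 17 on any array.

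Of 35 tested probe sets for calmodulin and the myosin phosphatase 14 were above 0 and 21 below (median -0.04). The smallest p belonged to Ppp1r14b, a phosphatase inhibitor, at 0.50 ± 0.23 (unadjusted p = 0.0557) with 0.32 at its other probe set, and next to the calmodulin-dependent kinase Camk2a at 0.60 ± 0.31 (unadjusted p = 0.0752) with -0.65 to 0.48 at its other 4. The phosphatase targeting subunit Ppp1r12b followed at -0.49 ± 0.26 (unadjusted p = 0.0878), with 0.13 to 0.19 at its other 3. Of 31 for thick filament and M-band assembly 16 were above 0 (median 0.02). Obsl1, a cytoskeletal adaptor related to obscurin, had 0.73 ± 0.22 at 1457121_at (limma adjusted p = 0.963) and 0.17 to 0.71 at its other 4 probe sets. The groups did not overlap at 1457121_at, 1 of the 31, against 2.19% of all tested probe sets. The M-band gene Myom3 had -0.39 ± 0.22 and the myosin chaperone Unc45b -0.19 ± 0.13.

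Among markers of other cells in whole muscle, 11 of 12 tested probe sets of Schwann cell and nerve markers were above 0 in log2 fold change (median 0.60), 13 of 17 of fibroblast and matrix markers (median 0.42) and 9 of 10 of endothelial markers (median 0.37), and 0 passed the threshold. The summed signal of Schwann cell and nerve markers was 1007 to 3782 on control and 1343 to 4019 on GR_KO arrays, with probe sets for 4 of 7 markers, 4 of 4 above the signal filter. The summed signal of 9 fibroblast and matrix markers was 6781 to 13455 on control and 11862 to 17165 on GR_KO arrays, and that of 8 endothelial markers 2645 to 3276 and 3360 to 4771, with 9 of 9 and 8 of 8 above the signal filter. Smooth muscle and pericyte markers summed to 5816 to 7045 and 5598 to 6847, with 6 of 8 above the filter. Satellite cell markers summed to 476 to 589 and 473 to 566, with 5 of 6 above it. Adipocyte markers summed to 2223 to 5541 and 2127 to 3673, macrophage and leukocyte markers to 530 to 1679 and 508 to 1107, and erythrocyte markers to 116 to 265 and 132 to 236. Control replicate 4 had the lowest sums of the Schwann cell, fibroblast and endothelial markers and the highest of the smooth muscle, the adipocyte and the macrophage markers. On the other controls the former ran from 1502 to 3782, 10054 to 13455 and 3188 to 3276. The latter ran from 5816 to 6241, 2223 to 3886 and 530 to 839. Skeletal muscle fibre markers also had their highest sum on control replicate 4, as given above. The part of these cells in the values of Myl4 and Mybph was not tested.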

How the data were processed

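The values deposited by the authors are MAS5 signal intensities on a linear scale, per the submitters' processing notes; the sources used here name no version or scaling target. The mean over each array, trimmed by 2% at each end, was 99.96, so a common scale had been set before deposit; such scaling leaves differences among very bright probe sets in place. Signals were taken to log2 without a pseudocount or another normalization, a zero counting as the array's smallest positive value. Of 45037 probe sets other than array controls, the 22518 with a mean log2 signal above the median (a signal of 19.4) entered limma 3.58.1 under R 4.3.3 (eBayes with trend, two-sided, Benjamini-Hochberg over all 22518). Correlations used exact permutation of pairings, two-sided. Symbols came from the platform annotation, updated through RefSeq gene identifiers. No 2 arrays were identical.

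The labels do not say that samples of a group came from separate mice, so a p-value reflects only the spread among these 8 samples, which may be partly technical, and the 4 arrays per group limit precision. Members, lists and the rule for named genes were chosen with earlier results of these data known. Every member was named, and from each other list the 3 genes with the smallest p. Beyond these came genes of the correlation pairs, heart markers and the additions stated above. Alternatives were other normalizations, pseudocounts of 2 and 6, other filters, 1 value per gene, other eBayes settings, array weights, a replicate block, a spike-in covariate, a threshold of 0.10 and leaving out each array. On data simulated from the 22518 probe sets, 4.40% of those changed by 0.58 on the log2 scale were recovered, 32.2% at 1.00, 62.4% at 1.50 and 78.5% at 2.00. Of the calls on simulated data 5.65% were false. The simulated noise was independent between probe sets, with no array standing apart as control replicate 4 did, so these rates may differ from those of the real arrays.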

Additional observations from a re-analysis of the deposited data

Results flagged for a closer look

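Among groups of 4 arrays, 36 were looked at for an array far from the other 3, of which chance flags about 1 in 20, and 4 were found. Control replicate 4 was far above the other controls for Mylpf 1448371_at (signal 23891), for Myl1 1452651_a_at (21734) and for the spike-in mean (8094). GR_KO replicate 4 was far above the other GR_KO arrays for Myl3 1428266_at (2133 against 1671 to 1741).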

How the results depend on the processing

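Under all 23 alternatives 0 member probe sets passed the threshold, and the smallest limma adjusted p of a member was 0.571. Directions of Myl4 and Mybph were kept under all of them, and those of Myl3 1427769_x_at and Mybpc1 1442769_at and 1444341_at under the 21 that gave them a value (the others kept 1 value per gene), while 9 probe sets changed sign under some; the causes were not tested. With quantile normalization the log2 fold changes were 0.06 for Mylpf, 0.00397 for Myl1, 0.02 for Mybpc2 and -0.04 for Myl2. With array weights they were 0.19 for Mylpf, 0.16 for Myl1, 0.19 for Mybpc2, -0.10 for Myl2 and -0.04 for Myl3 1428266_at. With the spike-in covariate they were 0.10 for Mylpf, 0.06 for Myl1, 0.10 for Mybpc2 and -0.05 for Myl2. Another setting, chosen after seeing the data, quantile normalized all 8 arrays and then left control replicate 4 out of the fit. It gave 0.02 for Myl1, -0.23 for Myl2, -0.07 for Myl3 1427768_s_at and -0.16 for Myl3 1428266_at. Every fit with an array left out also kept the filter set on all 8 arrays. With single arrays left out, log2 fold changes ranged from -0.13 to 0.18 for Mylpf, -0.22 to 0.17 for Myl1, -0.16 to 0.17 for Mybpc2, -0.16 to 0.20 for Myl2, -0.04 to 0.45 for Myl3 1427768_s_at, -0.17 to 0.48 for Myl3 1428266_at, -0.18 to 0.05 for Mybpc1 1455645_at, -0.24 to 0.01 for Mylk2 and -0.51 to 0.03 for Smtnl1.

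Over all probe sets 5 were called lower, those of Fkbp5, Aldh1a1 and Prima1 and 2 of Nr3c1. The count was 3 with quantile normalization, 0 without a filter (1944 at an unadjusted p under 0.05), 1 with the mean of a gene's probe sets, 1 without trend, 10 with array weights and 0 to 5 with single arrays left out. With the replicate number as a block it was 0 (753 at an unadjusted p under 0.05). Same-numbered arrays of the groups did not deviate together (correlations of -0.123, 0.114, 0.0927 and -0.376). So few values cannot show whether same-numbered samples were paired, and the main fit did not pair them.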
